A study of Atriplex lentiformis with 9 samples.

Results

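Root zinc of single plants was used as a continuous scale on which to read the root transcriptome of quailbush (Atriplex lentiformis, a salt-tolerant desert shrub) growing in mine waste. Of the 9 deposited root libraries, 8 were used. The library titled TC10 plant 5 was left out, because the header of its file names TC15 plant 6 and its values are identical to those of TC15 plant 6. All plants were Atriplex lentiformis (Torr.) S. Wats., and all roots were taken after 11 weeks in tailings amended with compost. The groups were 10% compost (TC10, plants 2 and 4), 15% compost (TC15, plants 2, 6 and 10) and 20% compost (TC20, plants 3, 5 and 9). No group without tailings or without compost enters this comparison, so every plant had grown in metal-bearing substrate. The labels give the zinc, arsenic and lead content of each root in micrograms per gram (ug/g), along with plant height and a stress score. The title of the study names zinc accumulation and its genes as the subject.

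Zinc is a cofactor of many enzymes and of zinc finger proteins, and it is toxic in excess. In roots of model plants such as Arabidopsis, ZIP-family transporters bring zinc into the cytosol, vacuolar transporters such as MTP1 store it, and the plasma membrane ATPases HMA2 and HMA4 pump it out of stele cells towards the xylem and the shoot. In the xylem, metals travel with citrate and nicotianamine, and zinc, iron, manganese and cadmium share several carriers.

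Each value is a normalised read number for an entry named after an Arabidopsis protein, so the role of an entry is known from Arabidopsis only. An entry may cover more than 1 quailbush transcript, and how transcripts were combined into entries is not stated. Of 5164 entries listed in any of the 8 libraries, 4801 reached 10 normalised reads in 2 or more libraries and were tested. Reads recovered over the listed entries numbered 3030394 to 4752637 per library. TC20 plant 9 and TC10 plant 2 stood somewhat apart, with a median Spearman correlation to the other libraries of 0.944 and 0.946, against 0.953 to 0.973 for the rest. Of the root markers, PHO1, SKOR and SHR of the stele were read in every library. The endodermal marker SCR stayed between 2.80 and 15.4 normalised reads, and the root hair marker COBL9 reached at most 1.91. Of the green-tissue markers, CB4B, a chlorophyll-binding protein, had 18.4 to 120.1 normalised reads. LHCA6 had 5.43 to 40.02, PSAK had 0.933 to 19.4, and LHCA5 was at 0 in all libraries but TC10 plant 2. These are bulk roots, in which fewer cells of a type and less RNA per cell cannot be told apart.

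Root zinc ran from 174 to 1075 ug/g over the 8 plants, a range of 6.18-fold. It was 491 and 637 ug/g in TC10, 373, 565 and 1075 ug/g in TC15, and 174, 215 and 277 ug/g in TC20. The mean was 564 ± 103 ug/g in TC10 (SD, n = 2), 671 ± 363 in TC15 (n = 3) and 222 ± 51.9 in TC20 (n = 3). All TC20 roots lay below all others, while TC10 lay inside the range of TC15. On the log2 scale, 72.3% of the zinc sum of squares lay between the treatments. Of the remainder, TC15 held 80.0%, TC20 15.2% and TC10 4.77%, and the single plants TC15 plant 10 and TC15 plant 2 held 45.2% and 33.9%. A pooled slope therefore mainly sets TC20 against the rest, and a slope with treatment as a covariate mainly reads the 3 TC15 plants.

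The other metals did not follow zinc across treatments in the same way. In order of rising zinc, root arsenic was 129 and 171 ug/g in TC10, 36, 117 and 216 ug/g in TC15, and 107, 65 and 105 ug/g in TC20. Root lead was 70 and 52 ug/g in TC10, 10, 37 and 56 ug/g in TC15, and 38, 31 and 59 ug/g in TC20. Log2 zinc and log2 arsenic had Pearson r = 0.58 (p = 0.129 by exact permutation, and 0.363 after adjustment for the 5 measures compared) and Spearman rho = 0.762 (exact permutation p = 0.0368, adjusted 0.184). Leaving out TC15 plant 10 and TC20 plant 9, whose zinc was the most extreme, gave r = 0.565. Within treatments r was 0.84 (exact permutation p = 0.167), so the more zinc-rich plant of a treatment tended to hold more arsenic, a relation that 8 plants did not carry past the threshold. For lead, r was 0.269 (exact permutation p = 0.539, adjusted 0.674), rho was 0.286 (exact permutation p = 0.501, adjusted 0.665), r without the same 2 plants was 0.213, and r within treatments was 0.82 (exact permutation p = 0.167). The stress score had r = 0.57 (exact permutation p = 0.145, adjusted 0.363) and rho = 0.489 (exact permutation p = 0.219, adjusted 0.548), and r was 0.162 without those 2 plants. Within treatments the stress score had r = 0.75 with zinc (exact permutation p = 0.222), and its part in the slopes with treatment was not tested. Read depth, counted over the listed entries, had r = 0.0381 with zinc (exact permutation p = 0.933) and rho = 0.19 (exact permutation p = 0.665), and r was -0.207 without those 2 plants. Height had r = -0.27 (exact permutation p = 0.508) and rho = -0.238 (exact permutation p = 0.582), with r = -0.831 without those 2 plants.

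**Figure D1:**
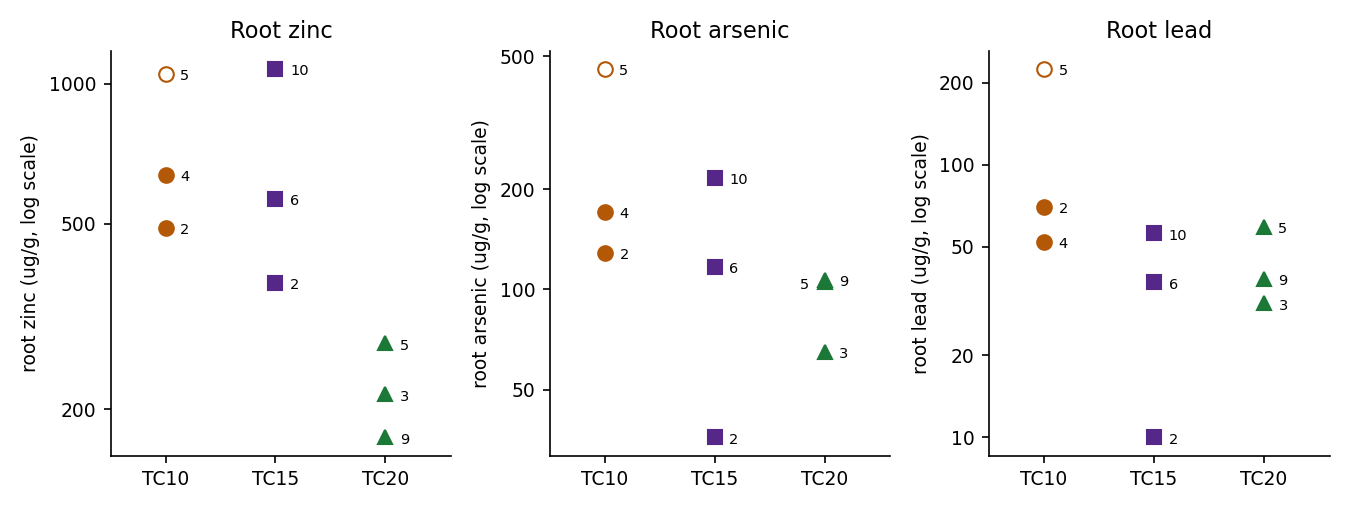
Root zinc, arsenic and lead (ug/g, log scale) of every plant by treatment, with plant numbers beside the points. The open circle is TC10 plant 5, whose library was left out. The 3 TC20 roots sit at 174 to 277 ug/g of zinc, below all others, and TC15 spans 373 to 1075 ug/g.

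The slopes below are changes of log2(normalised reads + 1) per doubling of root zinc, fitted with limma, and they understate the change of low entries. Values are normalised reads, listed in order of rising zinc within a treatment, which is plants 2 and 4 of TC10, plants 2, 6 and 10 of TC15, and plants 9, 3 and 5 of TC20.

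Over all 8 plants, no entry passed an adjusted p of 0.05 with limma (0 of 4801, 0.0%), and the lowest adjusted p was 0.285. At an unadjusted p under 0.05 there were 204 entries (4.25%), of which 90 were higher (1.87%) and 114 lower (2.37%) with more zinc. The edgeR quasi-likelihood test called 0 and had 244 unadjusted, and DESeq2 called 6 of 5164 (0.116%). Those 6 were USPL1 and R47BP, higher with zinc, and BXL7, RBL1, IPMKB and ATCA1, lower with zinc. The 204 became 104 without TC20 plant 9.

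USPL1, a protein with a BURP domain, had the smallest p of the pooled fit. It had 289 and 468 in TC10, 321, 394 and 668 in TC15, and 153, 237 and 270.1 in TC20. The value was higher with more zinc in 7 of 7 pairs of plants of the same treatment (1 pair in TC10, 3 in TC15 and 3 in TC20), and the TC20 roots were the lowest. Its pooled slope was 0.70 (SE 0.10) with an adjusted p of 0.285 in limma and 5.63e-07 in DESeq2. Its slope with treatment as covariate was 0.83 (SE 0.19), with an adjusted p of 0.206 in limma. R47BP, an RNA-binding protein of the RBP47 type, had 446 and 571 in TC10, 486, 655 and 651 in TC15, and 288, 359.7 and 353 in TC20. Its TC20 values did not overlap the others, and the pooled slope was 0.46 (SE 0.09), with an adjusted p of 0.918 in limma. NAC29, a NAC transcription factor known from leaf senescence, had 122.9 and 284 in TC10, 249, 192 and 829 in TC15, and 69.5, 159 and 184 in TC20. TC15 plant 10, the root richest in zinc, held the highest value and TC20 plant 9, the poorest, the lowest, with a pooled slope of 0.96 (SE 0.24) and an adjusted p of 0.918 in limma. LRKS2, a lectin receptor kinase, and ISOA3, a starch-debranching isoamylase, had pooled slopes of 0.41 and 0.38.

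The entries lower with zinc in the pooled fit included 2 glycosidases. BXL7, a beta-xylosidase-like protein, had 317 and 326 in TC10, 453, 372 and 272 in TC15, and 518, 499 and 432 in TC20. Its values lay in a narrow band and 3 of the 4 highest were the TC20 roots, with a pooled slope of -0.36 (SE 0.08) and an adjusted p of 0.918 in limma. E139, a beta-glucanase, had 182 and 79.0 in TC10, 152, 82.3 and 39.7 in TC15, and 256, 133 and 119.8 in TC20. It was lower with more zinc in 7 of 7 pairs within treatments, with slopes of -0.78 (SE 0.20) pooled and -1.38 (SE 0.27) with treatment. ATCA1, an alpha carbonic anhydrase, which is a zinc enzyme, had 20.0 and 28.9 in TC10, 41.0, 65.1 and 16.8 in TC15, and 253, 107 and 48.1 in TC20. TC20 plant 9 held by far the highest value and TC15 plant 10 the lowest, with a pooled slope of -1.23 (SE 0.29). IPMKB, a kinase of inositol polyphosphates, had 275 and 344 in TC10, 346, 394 and 290.2 in TC15, and 787, 635 and 573 in TC20. All TC20 values lay above all others, with a pooled slope of -0.56 (SE 0.12), while with treatment as covariate the slope was -0.22 (SE 0.19). RBL1, a rhomboid-like protease, U86A1, a UDP-glycosyltransferase, and LHWL3, a bHLH factor, had pooled slopes of -0.67, -0.73 and -0.38. None of these passed with limma (adjusted p = 0.918 each).

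**Figure D2:**
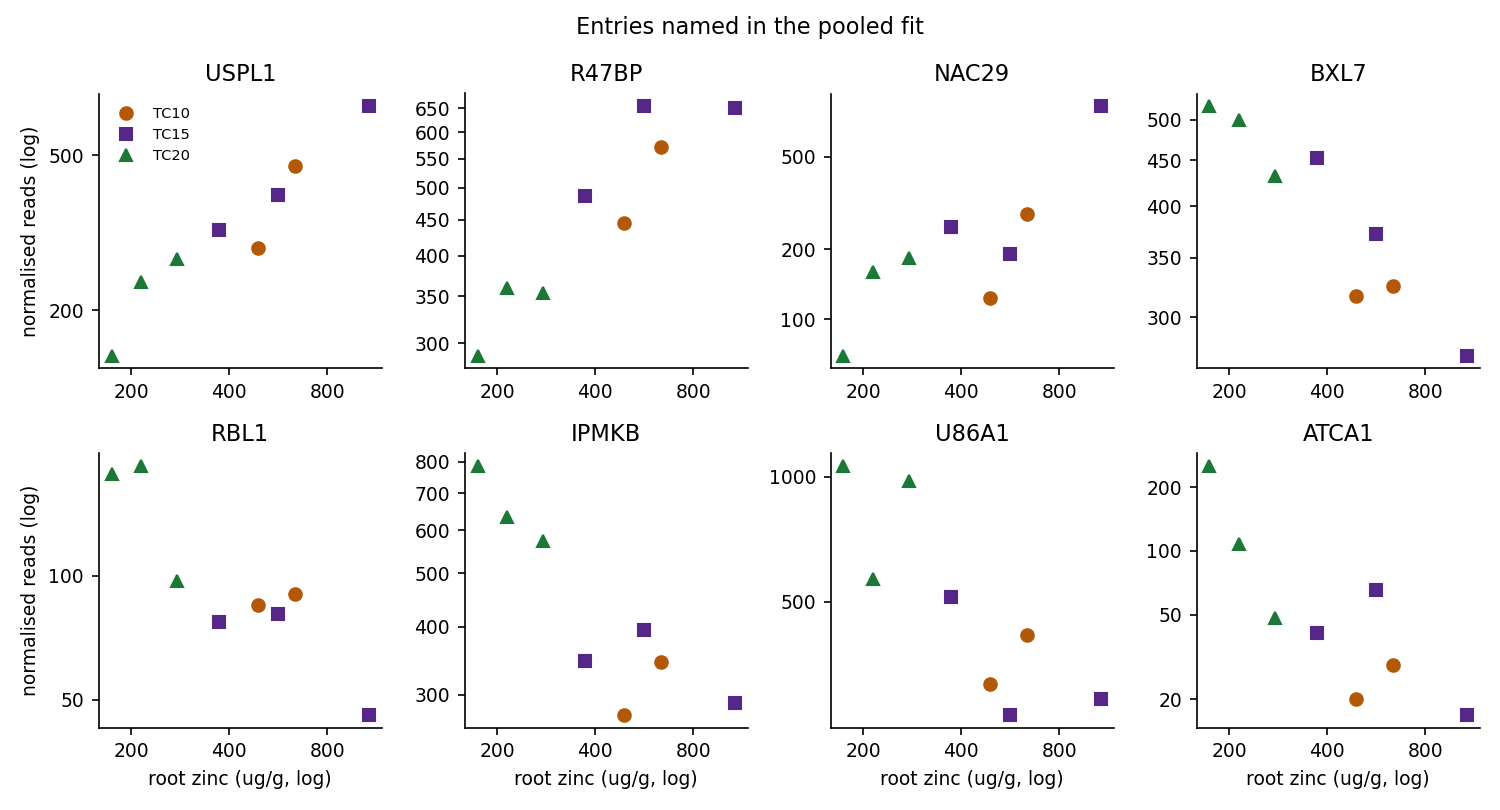
Normalised reads (log axis) against root zinc (ug/g, log axis) for 8 entries named in the pooled fit; each point is 1 plant, coloured by treatment. USPL1 runs from 153 in TC20 plant 9 to 668 in TC15 plant 10, and IPMKB and U86A1 are high in TC20.

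With treatment as a covariate, only VITH4 passed with limma (1 of 4801, 0.0208%). VITH4 is a homolog of the vacuolar iron transporters, which move iron, and in some members manganese, into the vacuole. It had 120.1 and 248 in TC10, 17.7, 68.8 and 307 in TC15, and 130.3, 189 and 454 in TC20. Within each treatment the value was higher in every plant with more zinc (7 of 7 pairs), while the treatments overlapped and the TC20 roots, poorest in zinc, included the highest value of all. Its slope was 2.64 (SE 0.20) per doubling of zinc, or 6.21-fold, with an adjusted p of 0.0215 in limma, 0.0222 in edgeR and 1.01e-18 in DESeq2. Taken in each treatment alone the slope was 2.76 in TC10, 2.62 in TC15 and 2.70 in TC20, so it was close to the same in the 3 treatments, where TC10 rests on 2 plants. A small p in a fit with 1 common slope favours entries whose slopes agree, so this likeness is not separate evidence. The exact permutation p within treatments was 0.0139, the smallest that 72 orders allow, for an entry that was chosen by its small p. Its pooled slope was 0.14 (SE 0.56) with an adjusted p of 0.976 in limma. Leaving out any 1 of the 8 libraries ended the limma call, with slopes of 2.47 to 2.88 and adjusted p from 0.051 (without TC10 plant 4) to 0.55 (without TC15 plant 10).

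VITH4 included, 590 entries (12.3%) had an unadjusted p under 0.05 in limma with treatment as covariate, 230 higher (4.79%) and 360 lower (7.5%) with more zinc. The edgeR test called 1 and had 575 unadjusted. DESeq2 called 183 of the 4763 entries it gave an adjusted p (3.84%). The 590 became 389 without TC15 plant 10. All 7 within-treatment pairs went up with zinc in 174 entries (3.62%) and down in 239 (4.98%). For any entry, the pairs share plants and use the same values as its slope, so their order is not separate evidence. Because 2 TC15 plants hold most of the zinc contrast within treatments, and arsenic and lead differ between the same plants, the part of each metal in these slopes cannot be told apart from these counts.

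Among the zinc uptake transporters, ZIP4 separated TC20 from the other treatments. ZIP4, a zinc uptake transporter, had 92.4 and 108 in TC10, 104, 103 and 67.9 in TC15, and 191, 198 and 443 in TC20. The 3 TC20 roots lay above all others, but within TC20 the plant with the most zinc had the most ZIP4 reads, and within TC15 the plant with the most zinc had the fewest. The slope was -0.73 (SE 0.23) pooled (limma p before adjustment 0.0127, adjusted 0.918) and -0.02 (SE 0.38) with treatment. ZIP1 had 79.1 and 162 in TC10, 115, 295 and 206 in TC15, and 264, 213 and 279 in TC20, with slopes of -0.18 (SE 0.26) and 0.51 (SE 0.37). ZTP50, a putative zinc transporter, had 529 to 753 normalised reads over the 8 roots, with slopes of 0.06 and 0.11. Of the 3 listed members 1 had an unadjusted p under 0.05 in the pooled fit (33.3%, against 4.25% of all entries). With treatment it was 0 (against 12.3%), and 3 members are too few for a share to be read. No entry matched the list of bZIP regulators of the zinc deficiency response.

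Of 21 tested entries for metal export and vacuolar storage, 7 (33.3%, against 12.3% of all entries) had an unadjusted p under 0.05 with treatment as covariate, 6 higher and 1 lower with more zinc, and the number was 4 without TC15 plant 10. In the pooled fit it was 2 (9.52%, against 4.25%), 1 in each direction (HMA5 higher and VITH2 lower). The median slope of the 21 was 0.17 with treatment and 0.05 pooled, against 0.01 and 0.00 over all entries. HMA2, the zinc-exporting ATPase, had 529.8 and 728 in TC10, 386, 499.9 and 1289 in TC15, and 374, 693 and 1033 in TC20. The plant with the most zinc had the most HMA2 reads in each treatment, and all 7 pairs went up. Its slope with treatment was 1.32 (SE 0.21), a limma p of 0.000376 before adjustment and 0.175 after it, with 4.25e-05 in DESeq2. The pooled slope was 0.34 (SE 0.23). The treatment ranges of HMA2 overlapped, since TC20 plant 5, with 277 ug/g of zinc, held more reads than TC10 plant 4, with 637 ug/g.

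Over the 21 members, 14 slopes with treatment were positive and 7 negative. S40A1, a ferroportin-type metal exporter, had 146 and 195 in TC10, 122, 176 and 219 in TC15, and 144, 207 and 497 in TC20. It was higher with more zinc in 7 of 7 pairs, with a slope of 0.88 (SE 0.34) and a limma p of 0.0375 before adjustment. NRAM2 and NRAM3, metal carriers of inner membranes, NRAM3 releasing metals from the vacuole, had slopes of 0.55 (SE 0.14) and 0.81 (SE 0.18). NRAM3 had 293 and 396 in TC10, 147, 201 and 369.6 in TC15, and 261, 225 and 310.4 in TC20, and NRAM2 534 and 604 in TC10, 313, 481 and 583 in TC15, and 476, 533 and 597 in TC20. In both, TC15 plant 2 held the lowest value of all 8 roots. PCR8, of the PLANT CADMIUM RESISTANCE family, had 209 and 659 in TC10, 121, 77.4 and 495 in TC15, and 278, 152 and 748 in TC20. Its slope was 1.72 (SE 0.61) and 5 of 7 pairs went up. MHX, which exchanges protons for magnesium and zinc at the vacuole, was the 1 member lower with zinc at an unadjusted p under 0.05, with 433 and 289 in TC10, 483, 365 and 194 in TC15, and 289.9, 451 and 134 in TC20. Its slope was -1.04 (SE 0.35), and TC20 plant 5 and TC15 plant 10 held the lowest values.

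The zinc storage carrier MTP1 had a slope smaller than its error with treatment. It had 900.4 and 1208 in TC10, 1487, 1259 and 1339 in TC15, and 651, 1184 and 1186 in TC20, with slopes of 0.23 (SE 0.14) pooled and 0.18 (SE 0.26) with treatment. With log2 arsenic added, the MTP1 slopes were 0.42 pooled and 1.04 with treatment (limma p before adjustment 0.0136 and 0.0117). The facilitator-type carrier ZIFL1 had slopes of 0.27 (SE 0.13) and 0.10 (SE 0.25), and HMA5, a copper ATPase, 0.24 (SE 0.10) and 0.33 (SE 0.19). VITH2, a second vacuolar iron transporter homolog, had 236 and 118 in TC10, 36.4, 44.2 and 24.7 in TC15, and 574, 82.1 and 170.5 in TC20. TC20 plant 9, the root poorest in zinc, held its highest value, and its slopes were -1.10 (SE 0.46) and -0.81 (SE 0.64), of opposite sign to those of VITH4.

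Among 19 tested entries for metal chelates and their transport, 3 (15.8%) had an unadjusted p under 0.05 with treatment, all higher with zinc, a share near the 12.3% of all entries. In the pooled fit it was 3 as well (15.8%, against 4.25%). The median slope was 0.20 with treatment and 0.08 pooled. DTX43, the citrate exporter known as FRD3 that loads citrate into the xylem, had 240.1 and 294 in TC10, 26.1, 161 and 260.2 in TC15, and 138, 179 and 407 in TC20. It was higher with more zinc in 7 of 7 pairs, and TC15 plant 2 lay far below all other roots. Its slope was 2.01 (SE 0.39) with treatment (limma p before adjustment 0.00143, adjusted 0.201, DESeq2 adjusted 0.00122) and 0.26 (SE 0.46) pooled. Without TC15 plant 2 the slope was 1.24, and without TC15 plant 10 it was 2.85. AB3C, an ABC transporter of the subfamily that carries glutathione conjugates, had 2052 and 2715 in TC10, 1396, 1683 and 3838 in TC15, and 996, 2007 and 2162 in TC20. Its limma p before adjustment was 0.0118 pooled and 0.00131 with treatment, with slopes of 0.51 (SE 0.16) pooled and 1.08 (SE 0.21) with treatment, and its DESeq2 adjusted p with treatment was 0.00114. YSL1, a carrier of metal-nicotianamine complexes, had 0.40 (SE 0.16) and 0.81 (SE 0.28), and HIP26, a metal-binding isoprenylated protein, 0.26 (SE 0.11) and 0.28 (SE 0.23). Without TC20 plant 5 the number with treatment was 5.

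Iron-related entries gave 1 of 8 (12.5%) with an unadjusted p under 0.05 with treatment, near the share over all entries (12.3%), and 0 in the pooled fit. ILR3, a bHLH regulator of the iron response, had 1413 and 1329 in TC10, 2045, 1599 and 1156 in TC15, and 1683, 1393 and 1304 in TC20. It was lower with more zinc in 7 of 7 pairs, with a slope of -0.52 (SE 0.12), a limma p of 0.0036 before adjustment and 0.207 after it, and a DESeq2 adjusted p of 0.00491. BH121, its bHLH relative, had a slope of -0.22 (SE 0.28) and ISU1, the scaffold of iron-sulfur clusters, 0.23 (SE 0.13).

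**Figure D3:**
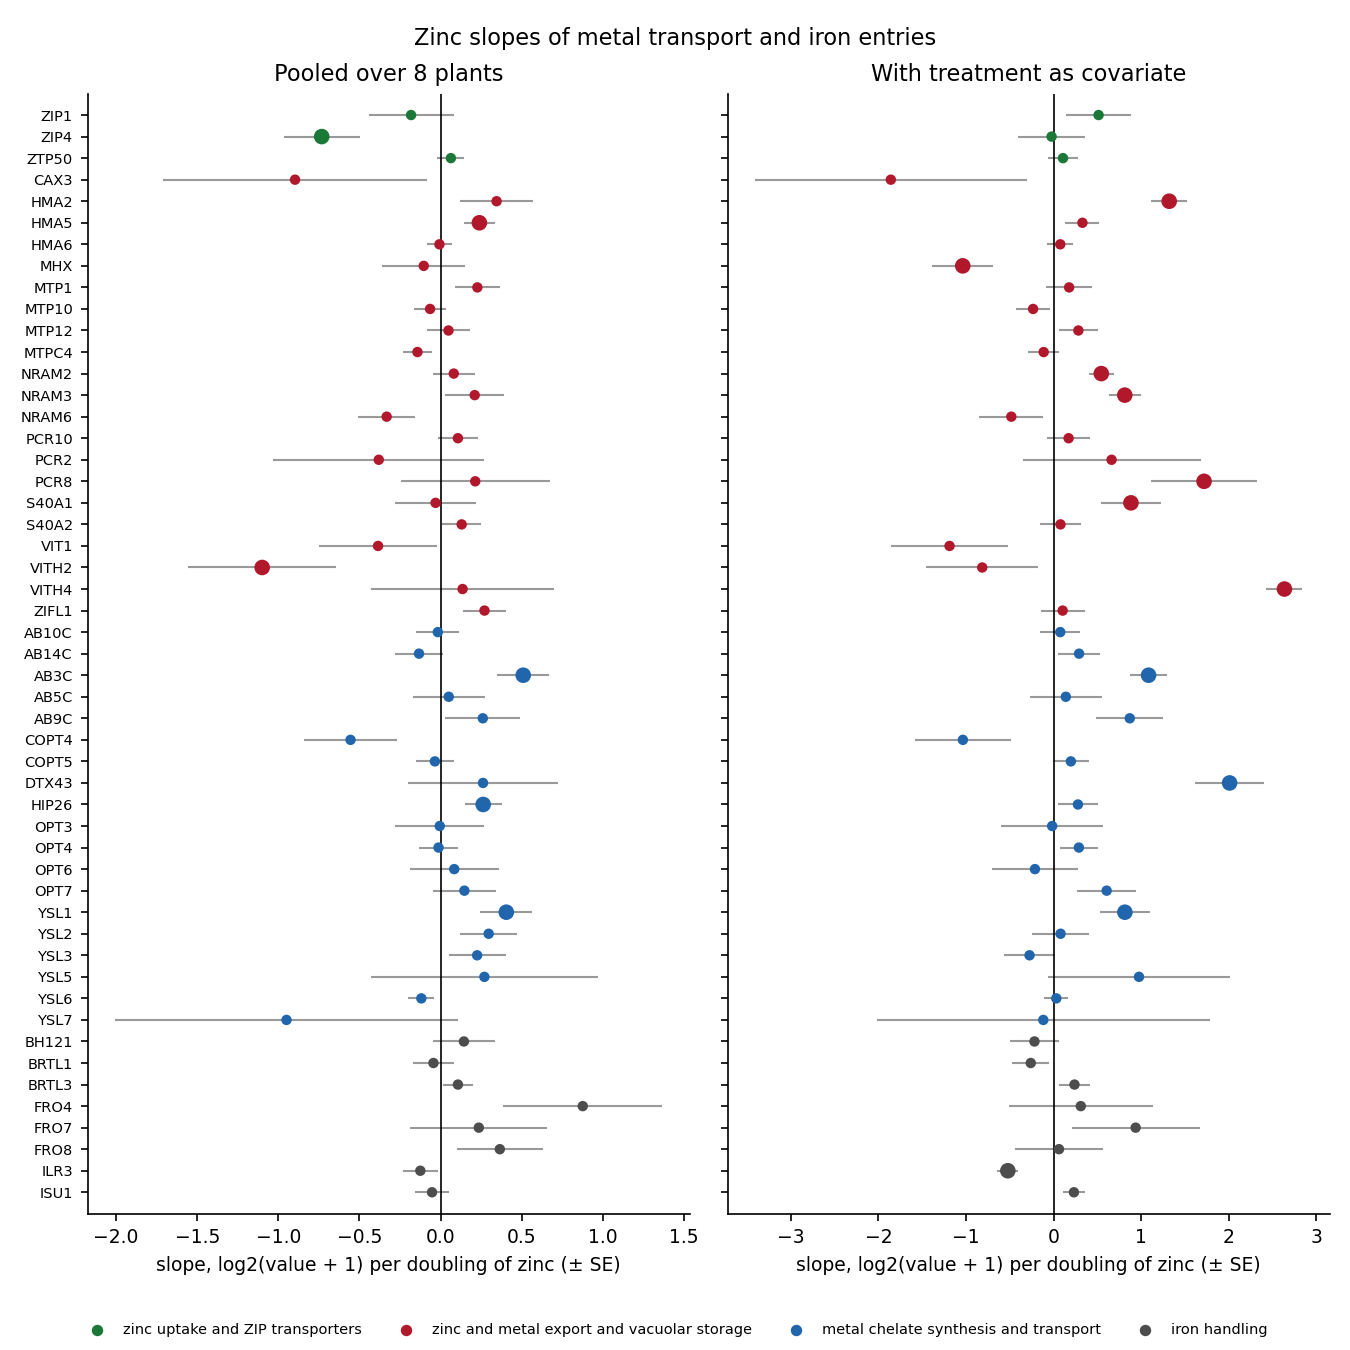
Zinc slopes (change of log2(value + 1) per doubling of root zinc, with SE) of all tested entries for metal uptake, export and storage, chelates and iron, pooled over 8 plants (left) and with treatment as covariate (right). Large points have an unadjusted p under 0.05 in limma. VITH4 at 2.64, DTX43 at 2.01 and HMA2 at 1.32 stand to the right in the fit with treatment and near 0 in the pooled fit.

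PHO1, which exports phosphate to the xylem, had 1049 and 2559.6 in TC10, 809.7, 1085 and 2863 in TC15, and 1317, 2668 and 4692 in TC20. It was higher with more zinc in 7 of 7 pairs, with a slope of 1.55 (SE 0.30) with treatment (limma p before adjustment 0.00127, adjusted 0.201, DESeq2 adjusted 0.000537) and 0.02 (SE 0.35) pooled. SKOR, the potassium channel of the stele, had 334 and 518 in TC10, 308, 296 and 578 in TC15, and 282, 508 and 527 in TC20, with a slope of 0.78 (SE 0.23). In both, the highest value of each treatment was that of its most zinc-rich plant. PHO1 and SKOR are also markers of the stele, so their reads can follow the amount of stele in a sample, whose part was not tested. The third tested stele marker, SHR, had a slope of 0.71 (SE 0.49) and a limma p of 0.192 before adjustment. Summed over PHO1, SHR and SKOR, a sum made up mostly of PHO1, the reads rose with zinc within each treatment. In order of rising zinc they were 1443 and 3356 in TC10, 1377, 1642 and 3879 in TC15, and 1859, 3362 and 5484 in TC20. HMA2 and DTX43 rose in the same plants, and the part of the amount of stele in their slopes was not tested either. The sum over 10 xylem and phloem markers was, in the same order, 23423 and 16033 in TC10, 21812, 13010 and 12195 in TC15, and 14544, 19575 and 12686 in TC20. Of those 10, XCP1, a protease of xylem vessels, had an unadjusted p under 0.05, with a slope of -0.97 (SE 0.29). Vessel markers CESA4, CESA7, CESA8 and IRX9 had slopes of -0.49, -0.65, -0.53 and -0.50, none at an unadjusted p under 0.05. Over all 10 markers, 7 slopes with treatment were negative and 3 positive. The median of -0.49 ran from -0.83 to 0.04 over the libraries left out. None of the 3 tested green-tissue markers had an unadjusted p under 0.05 in either fit.

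Of 19 tested phosphate entries, 5 (26.3%, against 12.3% of all entries) had an unadjusted p under 0.05 with treatment, 4 higher and 1 lower, and 2 in the pooled fit (10.5%, against 4.25%), both lower. The number with treatment was 2 without TC20 plant 5 and 3 without TC15 plant 2 or plant 10, and the median slope was -0.03. Beside PHO1, the entries higher with zinc were PHL1, a relative of the phosphate starvation factor PHR1 (slope 0.54 (SE 0.19)), UBC24, the ubiquitin-conjugating enzyme known as PHO2 (slope 0.52 (SE 0.20)), and PPA1, a purple acid phosphatase (slope 0.56 (SE 0.19)). All 3 went up in 7 of 7 pairs. PPA22, another purple acid phosphatase, had 395 and 509 in TC10, 503, 712 and 191 in TC15, and 1021, 856 and 289 in TC20. Its slope was -1.18 (SE 0.44), with the lowest value in TC15 plant 10. RNS1, a ribonuclease known to be induced by phosphate starvation, had 466 and 349 in TC10, 813, 683 and 146 in TC15, and 1025, 1026 and 362 in TC20. It was lowest in the most zinc-rich plant of TC15 and of TC20, with slopes of -0.87 (SE 0.23) pooled and -1.75 (SE 0.30) with treatment.

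Outside metal and phosphate transport, the entries with the smallest p within treatments covered several families. C83B1, a cytochrome P450 that makes glucosinolates in Arabidopsis, had 451 and 694 in TC10, 134, 413 and 1335 in TC15, and 631, 675 and 2937 in TC20. All 7 pairs went up, with a slope of 2.30 (SE 0.33) and a DESeq2 adjusted p of 1.8e-07, while the pooled slope was 0.03. FOX2, a flavin-dependent oxidoreductase, had 2860.4 and 5961 in TC10, 3037, 4102 and 10136 in TC15, and 3422, 4246 and 6425 in TC20. All 7 pairs went up as well, with a slope of 1.27 (SE 0.20). AHK1, a histidine kinase that senses osmotic stress, had 2798 and 3246 in TC10, 591, 770.1 and 2952 in TC15, and 1363, 1268 and 2749.6 in TC20. TC15 plant 2 held its lowest value, and the slope was 1.52 (SE 0.24). Each of the 3 had an adjusted p of 0.175 in limma.

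More of the named entries were lower with zinc. TBL36, of a family that acetylates wall polysaccharides, had 1065 and 1067 in TC10, 2454, 1320.4 and 378 in TC15, and 1485, 1344 and 715 in TC20. The order followed zinc in TC15 and TC20 while the 2 TC10 plants were level, with a slope of -1.67 (SE 0.21), an adjusted p of 0.175 in limma and 4.38e-08 in DESeq2. RTE1, which stabilises ethylene receptor signalling, had 794 and 408 in TC10, 1076, 875 and 279.6 in TC15, and 704, 402 and 274 in TC20. OFP7, an ovate family repressor, had 808 and 527 in TC10, 1237, 775 and 464 in TC15, and 786, 627 and 467 in TC20. Both were lower with more zinc in 7 of 7 pairs, with slopes of -1.48 (SE 0.22) and -0.98 (SE 0.14). VQ4, a VQ-motif protein, and RLF34, a RALF signalling peptide, were lower in 7 of 7 pairs too, with slopes of -0.94 (SE 0.14) and -1.62 (SE 0.25). ERF25, an AP2/ERF factor, had 598 and 118 in TC10, 309.7, 120.4 and 21.2 in TC15, and 156, 166 and 94.4 in TC20. TC10 plant 2 held its highest and TC15 plant 10 its lowest value, with a slope of -2.47 (SE 0.42). GL32, a germin-like protein, and SCAB3, an actin-binding protein, had slopes of -1.59 (SE 0.25) and -1.16 (SE 0.20). None of these passed with limma, and their DESeq2 adjusted p ran from 4.38e-08 for TBL36 to 0.000314 for SCAB3.

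**Figure D4:**
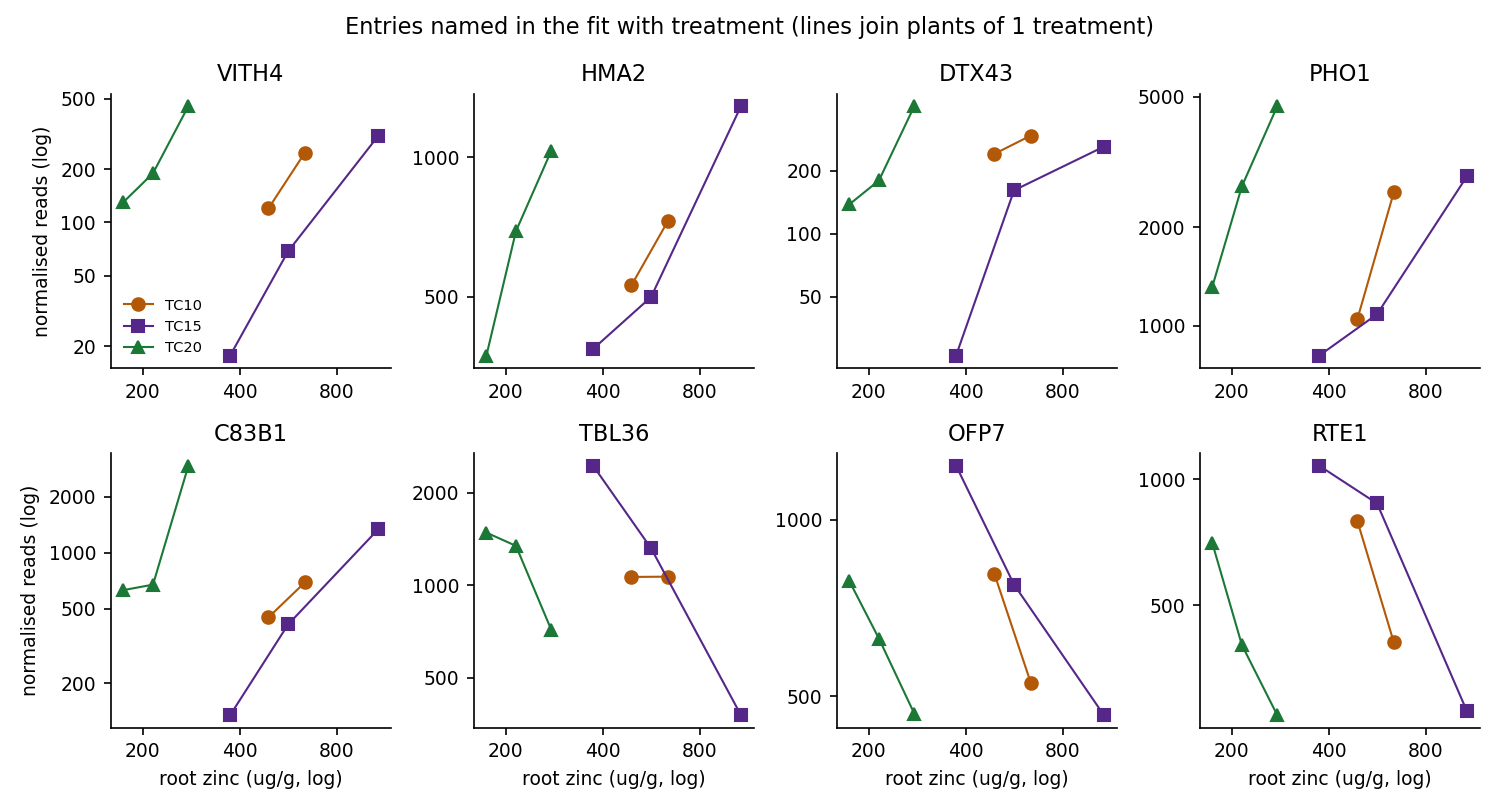
Normalised reads (log axis) against root zinc (ug/g, log axis) for 8 entries named in the fit with treatment; lines join the plants of a treatment. VITH4, HMA2, DTX43, PHO1 and C83B1 climb along each line while the TC20 line sits to the left of the others, and OFP7 and RTE1 descend along each line.

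The difference between the slope within treatments and the slope between treatment means was tested in 1 model. No entry passed with limma (0 of 4801, 0.0%), with a lowest adjusted p of 0.153, and 555 (11.6%) had an unadjusted p under 0.05, 245 (5.1%) with the more positive slope within treatments and 310 (6.46%) with the more negative. The edgeR test called 0 with 571 unadjusted, and DESeq2 called 185 of 4863 (3.8%). VITH4 had a difference of 3.46 (SE 0.49), C83B1 of 3.14 (SE 0.38), TBL36 of -1.62 (SE 0.23) and RTE1 of -1.85 (SE 0.25), each with an adjusted p of 0.153 in limma. For HMA2 it was 1.35 (SE 0.23, adjusted p 0.179 in limma) and for PHO1 2.12 (SE 0.34, adjusted p 0.179 in limma). For USPL1 it was 0.18 (SE 0.22), with an adjusted p of 0.796 in limma.

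Wall polysaccharide entries leaned to lower values with more zinc. Of 93 tested, 16 (17.2%) had an unadjusted p under 0.05 with treatment, against 12.3% of all entries. Of these, 14 were lower and 2 higher, where 7.5% and 4.79% of all entries were lower and higher. The number ranged from 10, without TC15 plant 10 or TC20 plant 5, to 22 without TC10 plant 2. In the pooled fit it was 7 (7.53%, against 4.25% of all entries), all lower, and 2 without TC15 plant 10. The median slope was -0.43 with treatment (70 of 93 negative) and -0.10 pooled (68 of 93 negative), where all entries had 0.01 and 0.00. XTH30, a xyloglucan endotransglucosylase, had 4429 and 1609.7 in TC10, 2114, 1572 and 932 in TC15, and 1737, 1112 and 792 in TC20. FLA17, a fasciclin-like arabinogalactan protein, had 4516 and 728 in TC10, 1325, 946 and 419 in TC15, and 1233, 929 and 407 in TC20. Both were lower with more zinc in 7 of 7 pairs and highest in TC10 plant 2, with slopes of -1.06 (SE 0.30) and -1.58 (SE 0.52). PME53, a pectin methylesterase, CSLCC, of the xyloglucan synthase family, and GAUT6, a galacturonosyltransferase, had slopes of -0.88 (SE 0.26), -0.96 (SE 0.35) and -0.81 (SE 0.34). The 2 members higher with zinc were CSLG2 and XTH6, with slopes of 1.06 (SE 0.35) and 1.35 (SE 0.54). XTH6 was low, with a mean of 12.6 normalised reads, near the filter of 10.

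Of 53 tested lignin, suberin and Casparian strip entries, 11 (20.8%, against 12.3% of all entries) had an unadjusted p under 0.05 with treatment, 4 higher and 7 lower, and 1 in the pooled fit (1.89%, against 4.25%). The median slope was -0.12 with treatment, -0.67 without TC15 plant 2 and -0.70 with log2 arsenic added. The 4 higher included HHT1, a feruloyl transferase of suberin (slope 0.56 (SE 0.22)), and KCS4, which elongates fatty acids (slope 0.83 (SE 0.19)). The others were the ligase 4CLL5 (slope 0.60 (SE 0.16)) and the peroxidase PER45 (slope 1.57 (SE 0.48)). PER45 was low, with a mean of 19.3 normalised reads. The 7 lower were the laccases LAC6 and LAC12 and the peroxidases PER12, PER17, PER52, PER64 and PER66. PER64, a peroxidase of Casparian strip lignin, had 2356 and 920.0 in TC10, 2847, 1234 and 711 in TC15, and 955, 1320.1 and 641 in TC20. TC15 plant 2 and TC10 plant 2, the plants with the least zinc in their treatments, held its 2 highest values, with a slope of -1.33 (SE 0.31). LAC12 was lower with more zinc in 7 of 7 pairs, with a slope of -0.80 (SE 0.17).

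Of 18 salt, dehydration and abscisic acid (ABA) entries, 7 (38.9%, against 12.3% of all entries) had an unadjusted p under 0.05 with treatment, 3 higher and 4 lower, and 2 in the pooled fit (11.1%, against 4.25%), both higher. The number with treatment was 3 without TC15 plant 10, 4 without TC15 plant 2 and 2 with log2 arsenic added. The ABA receptors PYL4 and PYL9 and the ABA-response factor ABI5 were the 3 higher, with slopes of 1.05 (SE 0.40), 1.70 (SE 0.53) and 1.28 (SE 0.35). PYL9 had 314 and 2016 in TC10, 477, 875 and 1888 in TC15, and 1213, 1074 and 3227 in TC20. P2C16, a phosphatase known as HAB1 that those receptors inhibit, had 187 and 112 in TC10, 766, 424 and 192 in TC15, and 69.5, 93.2 and 36.7 in TC20. In each treatment the most zinc-rich plant held the highest PYL9 and the lowest P2C16 value. The slope of P2C16 was -1.35 (SE 0.28). ABAH3, which breaks down ABA, had 872 and 166 in TC10, 202, 140.0 and 2.65 in TC15, and 273, 142 and 150.4 in TC20. Its slope was -3.65 (SE 0.66), with almost no reads in TC15 plant 10. ABAH2, of the same family, and COR47, a dehydrin, had slopes of -0.56 (SE 0.22) and -3.73 (SE 0.92), and COR47 rested on TC15 plant 2, with 1758 normalised reads against 8.11 to 157 elsewhere.

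Antioxidant enzymes and glutathione transferases gave 5 of 25 (20%, against 12.3% of all entries) with an unadjusted p under 0.05 with treatment and 0 in the pooled fit, and 2 with treatment without TC15 plant 10. GSTUP and GSTUA, both glutathione transferases, and SODF2, an iron superoxide dismutase, were higher, with slopes of 0.64 (SE 0.22), 0.75 (SE 0.24) and 0.40 (SE 0.15). MDAR5, a monodehydroascorbate reductase, and PRX2E, a peroxiredoxin, were lower in 7 of 7 pairs, with slopes of -0.70 (SE 0.16) and -0.72 (SE 0.13). Of 10 sulfate and glutathione synthesis entries, 2 (20%, against 12.3%) had an unadjusted p under 0.05 with treatment and 0 in the pooled fit. SUT13, a sulfate transporter, had 135 and 65.5 in TC10, 363, 236 and 105 in TC15, and 550.5, 127 and 59.5 in TC20. It was lower with more zinc in 7 of 7 pairs, with a slope of -1.79 (SE 0.54), and CYSD2, a cysteine synthase, had a slope of 1.37 (SE 0.50).

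Zinc finger proteins of the DNA- and RNA-binding families went both ways. Of 49 tested, 10 (20.4%, against 12.3% of all entries) had an unadjusted p under 0.05 with treatment, 5 higher and 5 lower, with a median slope of -0.04, and the number was 5 without TC15 plant 10. In the pooled fit it was 2 (4.08%, against 4.25%), C3H18 and ZFP3. ZFP3 had 209 and 688 in TC10, 435, 457 and 958 in TC15, and 214, 321 and 529.8 in TC20. It was higher with more zinc in 7 of 7 pairs, with slopes of 0.61 (SE 0.22) pooled and 1.14 (SE 0.37) with treatment. ZAT5 and C3H30 were lower in 7 of 7 pairs, with slopes of -0.72 (SE 0.22) and -0.70 (SE 0.18). Of 4 zinc-containing enzymes, 2 (50%, against 4.25%) had an unadjusted p under 0.05 in the pooled fit, both lower. They were the carbonic anhydrases ATCA1 and GCA1 (slopes -1.23 and -0.22). With treatment the number was 0 (against 12.3%). It became 3 with log2 arsenic added, where 763 of all 4801 entries had such a p. A list of 4 members is too small for a share to be read.

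Heat shock proteins and factors gave 5 of 34 (14.7%) with treatment, 1 higher and 4 lower, near the 12.3% of all entries, and 2 in the pooled fit (5.88%, against 4.25%). The number with treatment ranged from 2, without TC10 plant 2 or 4 or TC20 plant 5, to 8 without TC15 plant 10. CLPB3, a chaperone of the ClpB type, was the 1 higher (slope 0.44 (SE 0.17)), and BAG7, a co-chaperone, was lower in both fits, with slopes of -0.42 (SE 0.12) pooled and -0.58 (SE 0.24) with treatment. UDP-glycosyltransferases gave 1 of 19 (5.26%, against 12.3% of all entries) with treatment and 2 pooled (10.5%, against 4.25%). Inositol phosphate enzymes gave 1 of 8 (12.5%, near the 12.3%) with treatment, MIOX1, and 1 pooled (12.5%, against 4.25%), IPMKB. Cytosolic ribosomal proteins gave 0 of 32 with treatment (against 12.3%) and 1 pooled (3.1%, against 4.25%). With log2 arsenic added to treatment the number became 18, where 763 of all 4801 entries had an unadjusted p under 0.05. The median slope of the 32 ribosomal entries was -0.16 pooled, and -0.00 without TC20 plant 9, whose centred mean over the list was 0.56 against -0.28 to 0.14 in the others. Of 7 entries encoded in the mitochondrial genome, 2 (COX3 and NU6M, 28.6%, against 12.3%) had an unadjusted p under 0.05 with treatment and 0 pooled (against 4.25%). Their median slope was -1.41 with treatment and 0.03 without TC15 plant 2, with 0 members left at that p without it or without TC15 plant 10. In TC15 plant 2 their centred mean was 2.10 on the log2 scale, against -0.75 to 0.37 elsewhere.

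**Figure D5:**
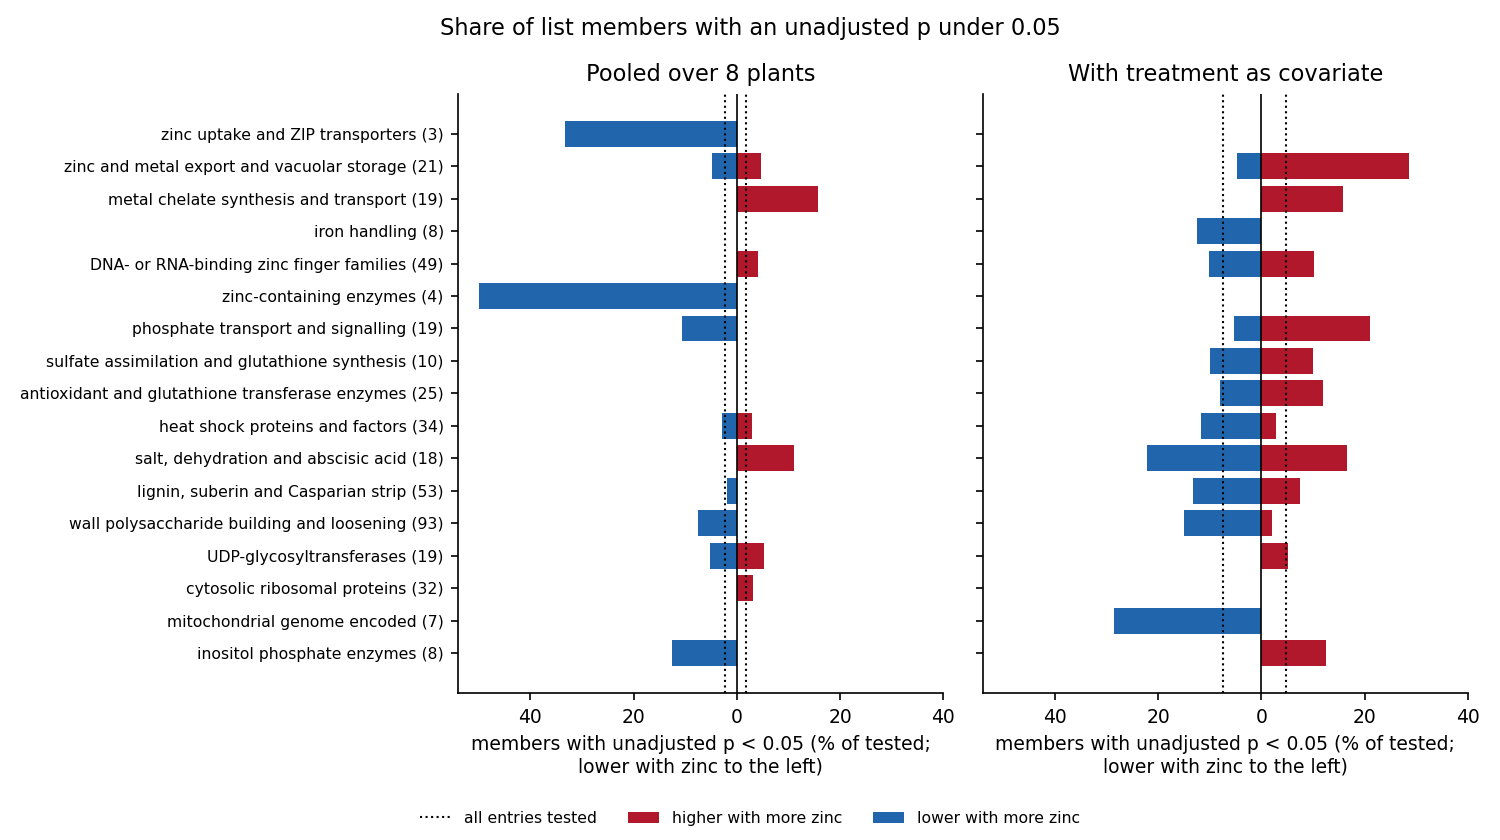
Share of tested members of each gene list with an unadjusted p under 0.05 in limma (% of tested, number tested in brackets), lower with zinc to the left and higher to the right. Dotted lines mark the share over all 4801 entries. Metal export and storage reaches 33.3% in both directions together in the fit with treatment, and lists with fewer than 10 members move in large steps.

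Single libraries carried several of these counts. Without TC20 plant 9, the pooled number was 0 for metal export and storage, chelates, zinc fingers, phosphate, salt and ABA, lignin and suberin, and heat shock. Without TC15 plant 10, the number with treatment was 0 for iron, inositol phosphate and mitochondrial entries and 1 for sulfate. With log2 arsenic added it was 0 for inositol phosphate and mitochondrial entries and 1 for sulfate.

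Since arsenic and lead differ between the same plants, slopes on those labels are given beside those on zinc, all from the same 8 libraries. For VITH4 the slope with treatment was 2.64 (SE 0.20) on zinc, 1.43 per doubling of arsenic (limma p before adjustment 0.00347) and 1.40 per doubling of lead. Pooled over treatments it was 0.14, 1.26 and 1.35 in the same order. For DTX43 the slopes with treatment were 2.01, 1.22 and 1.29, and pooled they were 0.26, 1.18 and 1.28. In TC15, zinc ran from 373 to 1075 ug/g, arsenic from 36 to 216 and lead from 10 to 56. Slope sizes on different metals are therefore not on the same scale. The limma p with treatment, before adjustment, was 0.00143, 0.00277 and 0.000358 for DTX43, smallest on lead. For HMA2 it was 0.000376, 0.0827 and 0.0612, smallest on zinc. Before adjustment, the limma p of the pooled slopes on arsenic and lead was 0.0196 and 0.00241 for VITH4, and 0.00484 and 2.95e-05 for DTX43. For USPL1 the pooled slopes were 0.70, 0.38 and 0.12, and for HMA2 they were 0.34, 0.45 and 0.41. With log2 arsenic added to zinc and treatment, the zinc slope of VITH4 was 2.34 (adjusted p 0.13 in limma), that of HMA2 1.97, that of PHO1 2.40 and that of DTX43 1.21 (limma p before adjustment 0.122). Within treatments r between zinc and arsenic was 0.84, and the part of arsenic in these slopes was not tested beyond this fit.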

How the data were processed

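Roots of 8 plants were compared by RNA-seq. Per the labels' protocols, RNA came from an RNeasy Plant kit and 500 ng of total RNA went into stranded TruSeq total RNA libraries. The tools named in the submitters' processing notes are kallisto, DESeq2, Trim Galore and FastQC. Per the labels, the study itself compared the 3 treatments by likelihood ratio in DESeq2, and the zinc slopes are a separate comparison. Tool versions, the transcript reference and how proteins were matched are not stated there. The deposited signal values are reads divided by 1 size factor per library by the authors: 100% of the values were whole reads within 0.001. Entries that a library does not list were set to 0. The reads recovered over the listed entries number 3030394 to 4752637 per library, and reads outside these entries are not known. Precision is limited by the 8 plants rather than by this depth.

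Limma 3.58.1 with an empirical Bayes trend (R 4.3.3) was fitted to log2(value + 1) of the 4801 entries that reached 10 in 2 or more libraries, with log2 root zinc alone (6 residual degrees of freedom), with treatment added (4), and with zinc split into treatment mean and deviation. P-values were adjusted by Benjamini-Hochberg over all entries tested, with a threshold of 0.05. The edgeR 4.0.16 and DESeq2 1.42.0 tests on the recovered reads, other filters, pseudocounts, scalings and covariates, and leaving out each library were alternatives. The labels name separate plants, so p-values measure the spread between plants. The pooled fit and its exact permutation leave treatment out, so their p-values cannot set zinc apart from compost. Exact permutation used 40320 orders over 8 plants and 72 within treatments (two-sided, scipy 1.17.1). As a check of the code, the fits were run on simulated data with set zinc slopes. That run does not bear on the p-values given here.

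The gradient, lists and rules were chosen with earlier results of these data known. Entries with a mean of at least 20 and no locus-code name were named if among the 12 smallest p pooled, the 14 smallest with treatment, the 6 smallest for the difference of slopes, DESeq2 calls pooled or the 6 smallest DESeq2 p with treatment, or if metal-list members with an unadjusted p under 0.05 or among the 3 most abundant of their list. Other members of lists were named after their values were seen. From the lists, 15 name matches to unrelated proteins were removed.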

Additional observations from a re-analysis of the deposited data

How the results depend on the processing

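The count of entries with an unadjusted p under 0.05 in the pooled fit was 204, and became 316 with DESeq2, 389 in TC10 and TC15 only and 562 with log2 arsenic as covariate. Leaving out 1 library gave 104 to 281. The count of entries with an adjusted p under 0.05 was 0 pooled and 6 with DESeq2, and stayed 0 in each fit that left out a library. With treatment as covariate it was 1, and became 183 with DESeq2 and 0 in TC10 and TC15 only, in TC15 and TC20 only, with log2 arsenic, with zinc on the linear scale and without any 1 library (0 to 0). The unadjusted count with treatment, 590, ran from 389 to 596 over the libraries left out. With treatment, leaving out either TC10 plant keeps a lone TC10 library, which is assumed to vary like the other groups. That library adds nothing to the slope, so both such fits give the same slopes, from TC15 and TC20 alone. The adjusted count for the difference of slopes was 0, and became 185 with DESeq2 and 0 to 2 with libraries left out (1 without TC10 plant 4, 2 without TC20 plant 3). The other settings for these counts, among them filter, pseudocount, TMM scaling and edgeR, stayed within 1.5 times. The causes of these shifts were not tested.

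No paired analysis was possible because the treatments share fewer than 2 plant numbers among the libraries used.

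Pooled slopes with DESeq2 of opposite sign were C83B1 -0.097 and PHO1 -0.027. Pooled slopes with edgeR of opposite sign were AB10C 0.000691, C83B1 -0.097 and PHO1 -0.027. Pooled slopes in TC10 and TC15 only of opposite sign were AB10C 0.17, AB14C 0.52, BH121 -0.43, ISU1 0.24, S40A1 0.55, ZIFL1 -0.0099 and ZIP1 0.66. Pooled slopes with log2 arsenic added of opposite sign were AHK1 -0.18, C83B1 -0.73, DTX43 -0.56, ILR3 0.013, MHX 0.19, NRAM2 -0.13, NRAM3 -0.10, OFP7 0.12, PCR8 -0.35, PHO1 -0.34, RTE1 0.18, VITH4 -0.81 and VQ4 0.18. Pooled slopes with zinc on the linear scale of opposite sign were AB10C 0.000994. Slopes with treatment with DESeq2 of opposite sign were ZIP4 0.041. Slopes with treatment with edgeR of opposite sign were ZIP4 0.057. Slopes with treatment in TC10 and TC15 only of opposite sign were MTP1 -0.014 and ZIFL1 -0.041. Slopes with treatment with log2 arsenic added of opposite sign were AB10C -0.55, AB14C -0.12, BH121 0.11, ZIP1 -0.29 and ZIP4 0.41. Slopes with treatment with zinc on the linear scale of opposite sign were ZIFL1 -0.0087. Over the libraries left out, slopes pooled that changed sign ran from -0.081 to 0.058 for AB10C, from -0.50 to 0.30 for C83B1, from -0.95 to 0.19 for ERF25, from -0.26 to 0.16 for MHX, from -0.23 to 0.020 for OFP7, from -0.11 to 0.42 for PCR8, from -0.31 to 0.20 for PHO1, from -0.27 to 0.24 for RTE1, from -0.21 to 0.14 for S40A1, from -0.36 to 0.36 for VITH4, from -0.20 to 0.070 for VQ4 and from -0.0097 to 0.13 for ZTP50. Over the libraries left out, slopes with treatment that changed sign ran from -0.37 to 0.47 for AB10C, from -0.13 to 0.49 for AB14C, from -0.013 to 0.61 for MTP1, from -0.49 to 0.15 for U86A1, from -0.046 to 0.80 for ZIFL1, from -0.020 to 1.33 for ZIP1, from -0.34 to 0.96 for ZIP4 and from -0.32 to 0.22 for ZTP50. None of these slopes passed with limma, except that of VITH4 with treatment, which changed sign in no setting. Of 1878 values of named entries under other settings, 65 changed sign, 12 lost and 36 gained a call, and 1765 did neither; the 36 gains came from DESeq2 or from single libraries left out. Results on lists were less stable: 139 of 629 counts of members under other settings moved by more than 1.5 times or to or from 0, and 41 of 918 medians by more than the mean SE of their members' slopes. With log2 arsenic added to the fit with treatment, the number of ribosomal members with an unadjusted p under 0.05 went from 0 to 18, that of salt and ABA members from 7 to 2 and that of zinc enzymes from 0 to 3. The number over all 4801 entries went from 590 to 763. In that fit the median slope was -0.73 for ribosomal proteins, -0.72 for antioxidant enzymes, -0.70 for lignin and suberin, -1.75 for zinc enzymes, 0.48 for zinc fingers and -0.11 for mitochondrial entries.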
